A study of Caenorhabditis elegans with 2 samples.

Results

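Of the reproducible LIN-54 peaks in whole young adult Caenorhabditis elegans, 729, or 21.1%, lay on an autosome in the promoter windows of genes on both strands, that is, between or beside genes transcribed away from each other. A promoter window reaches from 1000 bp before a protein-coding transcript's 5′ end to 300 bp past it. A peak was taken when its summit lay in the windows of at least 1 plus-strand and at least 1 minus-strand gene, and more than 200 bp from any tRNA gene. They made up 24.1% (95% Wilson interval 22.6% to 25.6%) of the 3026 autosomal peaks away from tRNA genes and 34.2% (32.2% to 36.2%) of the 2132 such peaks in promoter windows. The remaining 1403 promoter peaks, in windows of genes of 1 strand, serve as the comparison and are called single-strand peaks. The 729 are called divergent peaks. Position chose them, and signal only through the irreproducible discovery rate (IDR) procedure that all peaks of the list had passed.

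The 2 biological replicates, 1 library each, form a single group of mixed-sex worms, 65 hours of age, synchronized as starved L1 larvae after bleaching. All carry the mutation unc-119(tm4063) and the integrated fosmid transgene wgIs743, which expresses LIN-54 with a TY1, EGFP and 3xFLAG tag beside an unc-119(+) rescue gene (strain OP743). Chromatin was immunoprecipitated with an antibody to GFP after sonication, and regions were called against a control, so that neither untagged worms nor lin-54 mutants were compared. The worms also have their own lin-54 gene, the pools mix all tissues, and no expression was measured. Each value below is the caller's signal, whose formula no source used here gives.

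LIN-54 is a DNA-binding subunit of DREAM, a complex that also holds the Rb-like protein LIN-35 and the E2F heterodimer of EFL-1 and DPL-1, and that is best known for keeping cell cycle genes repressed. LIN-54 contacts the cell cycle genes homology region (CHR), here TTCGAA and likewise TTTGAA, and the heterodimer contacts E2F sites, here TTCCCGC and its variants TTCGCGC and also TTGCCGC and lastly TTGGCGC, each read on both strands. In the compact worm genome neighbouring genes are often transcribed from a shared intergenic gap, so a protein bound there can serve either gene, both or neither. A ChIP peak gives the position of the protein and not the gene it acts on.

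Reference sequence of the genome build ce11 (WBcel235) is given for the strongest divergent peaks on chromosomes II to V whose 101 bp around the summit touch no annotated exon. They are the 3 strongest with an E2F site, the 3 strongest with a CHR element and no E2F site, the strongest with neither, and the one remaining DREAM subunit gene that met these conditions. Each is the plus strand, written 5′ to 3′ with the summit at its middle base. Capitals mark E2F sites and CHR elements, and a pair is named with its minus-strand gene first.

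K01G5.10/tasp-1, chrIII:10759202-10759302, signal 4812, 1 E2F site: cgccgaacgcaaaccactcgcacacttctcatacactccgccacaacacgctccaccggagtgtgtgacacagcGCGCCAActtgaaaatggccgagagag
Y53F4B.9/Y53F4B.11, chrII:15010590-15010690, signal 2428, 2 E2F sites and 1 CHR element: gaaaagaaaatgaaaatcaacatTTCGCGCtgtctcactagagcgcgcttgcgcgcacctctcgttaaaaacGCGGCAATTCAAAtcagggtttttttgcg
cct-8/Y55F3AR.2, chrIV:1094299-1094399, signal 1610.5, 1 E2F site: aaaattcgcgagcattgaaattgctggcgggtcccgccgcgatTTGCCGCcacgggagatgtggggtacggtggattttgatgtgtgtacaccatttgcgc
rpl-7A/set-21, chrIV:4390630-4390730, signal 1993, 1 CHR element: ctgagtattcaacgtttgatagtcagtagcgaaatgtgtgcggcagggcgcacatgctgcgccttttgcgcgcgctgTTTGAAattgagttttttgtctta
T27E9.2/ant-1.1, chrIII:13463057-13463157, signal 1860, 1 CHR element: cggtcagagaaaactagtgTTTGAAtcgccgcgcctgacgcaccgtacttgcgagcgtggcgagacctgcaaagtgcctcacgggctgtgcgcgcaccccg
haf-3/F57A10.2, chrV:15766350-15766450, signal 1740, 1 CHR element: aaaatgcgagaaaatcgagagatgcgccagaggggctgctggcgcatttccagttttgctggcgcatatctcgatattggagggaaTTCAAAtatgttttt
rpl-20/Y17G9B.5, chrIV:4750017-4750117, signal 1981, neither element: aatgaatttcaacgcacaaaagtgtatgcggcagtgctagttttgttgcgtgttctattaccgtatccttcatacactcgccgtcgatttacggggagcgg
efl-1/fbxa-90, chrV:16965794-16965894, signal 976, neither element: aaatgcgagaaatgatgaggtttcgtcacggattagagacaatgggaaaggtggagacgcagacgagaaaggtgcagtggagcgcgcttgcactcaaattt

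In the Y53F4B.9/Y53F4B.11 sequence an E2F site and a CHR element abut, read as TTGCCGC and TTTGAA on the minus strand with no base between them. The other E2F site of that sequence, TTCGCGC, lay on the plus strand with its centre 24 bp to the left of the summit. The 3 CHR elements of the rpl-7A, ant-1.1 and haf-3 sequences were centred 29.5, 28.5 and 38.5 bp from the summit.

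The rule nearly fixes a head-to-head arrangement, a short gap and a summit inside it, so these values are descriptions. At 726 of the 729 peaks the nearest minus-strand 5′ end lay to the left of the nearest plus-strand 5′ end, so that the genes pointed away from each other. At the other 3, rec-1/pif-1 (signal 374), F42A10.5/abcf-3 (224) and T22D1.8/T22D1.17 (209), the 5′ ends crossed by 15, 74 and 88 bp and the transcripts overlapped head-on. The windows of 2 genes held 681 peaks, those of 3 genes 47, and those of 4 genes 1. In all, 1428 protein-coding genes lay at these peaks, in 694 distinct nearest pairs, and 34 pairs had more than 1 peak.

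The gap between the nearest 5′ ends had a median of 524 bp, with quartiles at 331 and 778 bp and a maximum of 1919 bp. The summit lay inside this gap at 680 peaks (93.3%, 91.2% to 94.9%), and at 87.2% when the outermost instead of the nearest annotated 5′ end of each gene was used. The summit was a median of 150 bp from the nearer 5′ end (quartiles 73 and 236 bp) and 365 bp from the farther (quartiles 234 and 586 bp). It was within 300 bp of both at 295 peaks (40.5%, 37.0% to 44.1%). For single-strand peaks the median distance to the nearest 5′ end was 227 bp, but the rule gives divergent peaks starts on both strands to be near, so the classes are not compared on it. Inside the gap the median summit lay 0.31 of the gap length from the nearer 5′ end, where 0.5 is the midpoint, with quartiles at 0.20 and 0.41. With the gap divided into 3 equal parts, the middle part held 296 of the 680 summits (43.5%, 39.8% to 47.3%). In gaps longer than 1000 bp the rule itself keeps summits away from both ends, so this share is not set against 1 in 3. The minus-strand gene was the nearer at 328 of the 680 (48.24%, 44.5% to 52.0%).

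**Figure D1:**
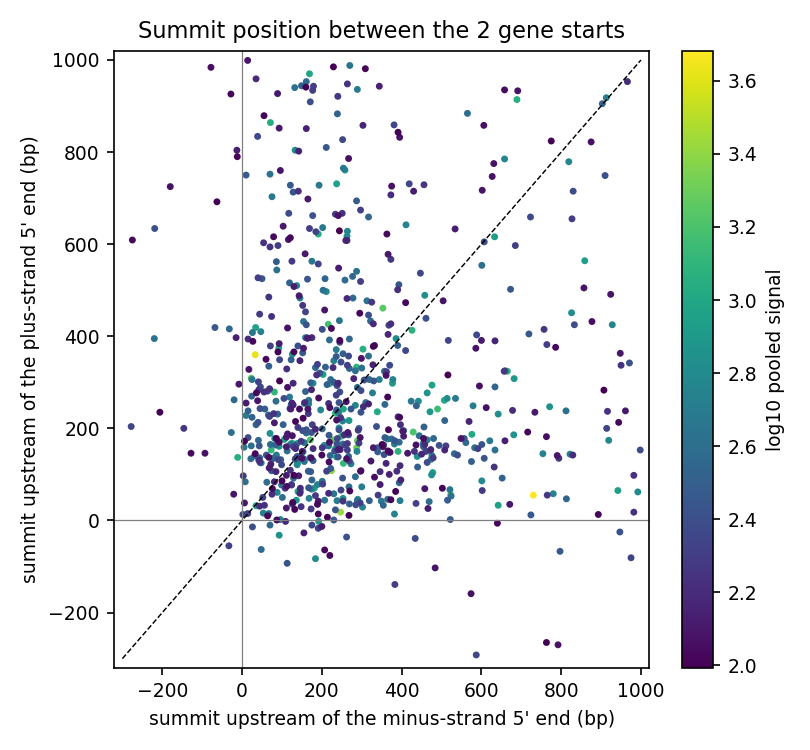
Distance in bp from each of the 729 divergent summits to the nearest minus-strand 5′ end (x axis) and plus-strand 5′ end (y axis), positive upstream, coloured by log10 of the pooled signal, with the midpoint as a dashed line. The points in the upper right quadrant are the 680 summits inside the gap, scattered to both sides of the midpoint.

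For the 299 peaks in gaps of 500 to 999 bp the median distance to the nearer 5′ end was 192 bp, and for the 87 peaks in gaps of 1000 bp or more it was 376 bp. It was 107 bp for the 273 peaks in gaps of 200 to 499 bp and 33 bp for the 70 in shorter gaps. Median signals by gap, from the shortest to the longest class, were 204, 254, 260 and 200. Their quartiles overlapped throughout, at 131 to 393 for the shortest class and 125 to 379 for the longest.

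The first comparison asks whether gaps between divergent genes were bound more often than other gaps. Of the 2079 gaps of 200 to 1999 bp between neighbouring autosomal protein-coding genes that start at the gap on both sides, 636 (30.6%, 28.6% to 32.6%) held an IDR summit. Of the 4746 gaps between genes of the same direction, called tandem here, 533 did (11.2%, 10.4% to 12.2%). The difference was 19.4 percentage points (17.2 to 21.6, odds ratio 3.48, adjusted Fisher's exact p = 9.19e-79). Of the 1313 gaps in which 2 genes end, 70 held a summit (5.33%, 4.24% to 6.68%). Peaks near tRNA genes were counted here, and without gaps that hold a tRNA gene the difference was 19.2 points.

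Head-to-head gaps of each length class held a summit more often than tandem gaps of the same class. The shares were 39.4% against 14.7% at 200 to 499 bp (Fisher's exact p = 6.41e-34), 32.3% against 10.5% at 500 to 999 bp (Fisher's exact p = 5.72e-38) and 20.5% against 8.45% at 1000 to 1999 bp (Fisher's exact p = 3.74e-14). A head-to-head gap has 2 gene starts and a tandem gap 1. If each of 2 starts had carried a summit at the tandem share, independently, 21.2% of head-to-head gaps would have held one over all lengths, and 27.3%, 19.9% and 16.2% in the 3 classes. Worm operons place downstream genes in tandem without a promoter of their own, and the annotation used does not mark operons, so their part in the tandem share was not tested. With an equally long list of the strongest regions of replicate 1 alone the shares were 28.3% against 10.7%, and with those of replicate 2 alone 31.1% against 11.1%.

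**Figure D2:**
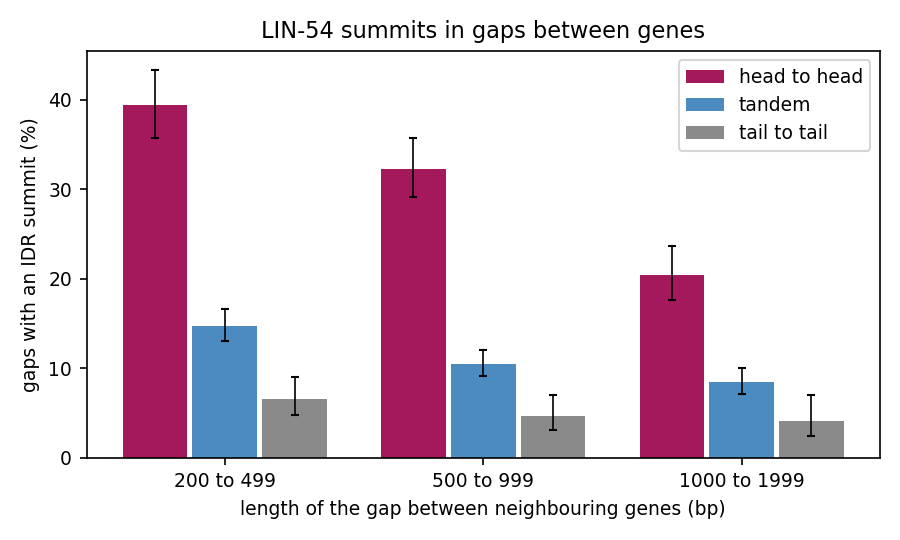
Percentage of gaps between neighbouring autosomal genes with an IDR summit, by gap length in bp and by the orientation of the genes; bars are shares and whiskers 95% Wilson intervals over gaps. Head-to-head gaps stand at 39.4%, 32.3% and 20.5%, above tandem and tail-to-tail gaps in every length class.

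Counted from the side of the peaks, the same summits were set beside background regions, so the result is not independent of the gap counts. Windows of both strands held 34.2% of the 2132 autosomal promoter IDR peaks, against 871 of 8048 (10.8%, 10.2% to 11.5%) background regions in promoter windows, that is, pooled relaxed regions that overlap no IDR peak (difference 23.4 points, 21.3 to 25.5, odds ratio 4.28, adjusted Fisher's exact p = 1.82e-131). Because background regions may not overlap an IDR peak, gaps that hold such a peak leave less room for them. How far this lowered the background share was not tested. In the stronger of 2 equal parts of the IDR list the share of IDR peaks was 39.1%. It ran over the chromosomes from 29.7% of promoter peaks on IV (124 divergent peaks) and 31.1% on II (123) through 34.4% on V (118) and 35.8% on I (178) to 38.8% on III (186), and the 95% intervals of neighbours in this order overlapped, whereas those of IV (25.5% to 34.2%) and III (34.6% to 43.3%) did not.

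The second comparison asks how strongly the peaks were bound. Divergent peaks had a median signal of 243 (quartiles 145 and 406, range 98.5 to 4812), and single-strand peaks one of 186 (quartiles 125 and 335). Of the divergent peaks, 429 (58.8%, 55.2% to 62.4%) exceeded the median of all autosomal promoter peaks, against 637 single-strand peaks (45.4%, 42.8% to 48.0%). The difference was 13.4 points (8.99 to 17.8, adjusted Fisher's exact p = 7.95e-09). An equally long list of the strongest regions of replicate 1 alone, classed anew and set against its own median, gave 14.4 points. Such a list of replicate 2 alone gave 15.1. Limited to summits of the IDR list within 200 bp of a 5′ end in both classes, the difference was 12.7 points (adjusted Fisher's exact p = 3.72e-05). That alternative was added after the data were seen. At the top of the list the classes were close, with 36 divergent (4.94%, 3.59% to 6.76%) and 58 single-strand peaks (4.13%, 3.21% to 5.31%) among the strongest 100. The weakest divergent peak, at nhr-86/lbp-9, had a signal of 98.5, and the strongest background region in windows of both strands 98.1. Whether nearby summits in 1 gap were merged by the caller was not tested.

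The replicates gave the divergent peaks similar values. Both relaxed lists held 721 of the 729 (98.9%), across which Spearman's rho was 0.910 and, for log10 signals, Pearson's r was 0.927. These describe peaks that were selected from the same libraries, so no p is given. Signals in the replicates were within 1.5-fold of each other at 610 of the 721 (84.6%, 81.8% to 87.1%). Of the divergent peaks 609 (83.5%, 80.7% to 86.1%) met a region in the top of both replicate lists, cut to the length of the IDR list, 102 in 1 and 18 in neither. Of the single-strand peaks 1067 (76.1%, 73.7% to 78.2%) did so in both. The depth behind each signal is unknown, and intervals cover counting error over peaks or gaps only.

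**Figure D3:**
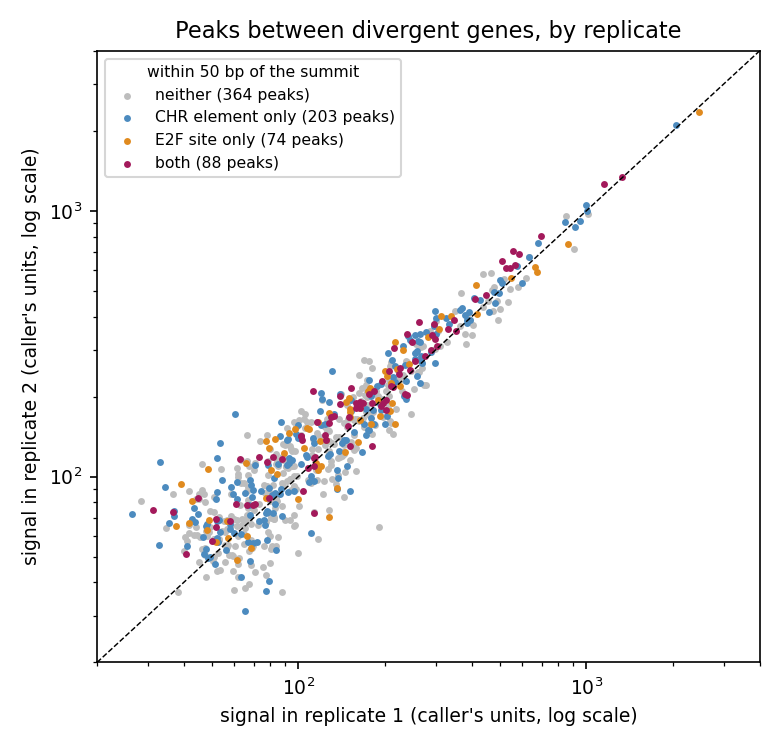
Signal of each divergent peak in replicate 1 (x axis) and replicate 2 (y axis) on log scales, for the 721 found in both relaxed lists, coloured by the elements within 50 bp of the summit (legend counts are of all 729), with equality as a dashed line. The points follow the line over the whole range, and peaks with each combination of elements occur from weak to strong.

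Of the 12 strongest divergent peaks, 5 lay at cytosolic ribosomal protein genes, as did 43 of all 729, a count that was not tested. The 12 strongest ranked 45 or better in each replicate. The first was K01G5.10/tasp-1 (chrIII:10759041-10759486), where tasp-1 encodes a threonine aspartase. Its signal was 2463 in replicate 1 and 2349 in replicate 2, and its summit was 55 bp upstream of tasp-1 and 730 bp upstream of K01G5.10. At rpl-12/lin-54 (chrIV:13240425-13240871), where a ribosomal protein gene shares its gap with the gene of the mapped protein, signals were 2051 and 2109, and the summit lay 33 bp upstream of rpl-12 and 360 bp upstream of lin-54. At clsp-1/eef-2 (chrI:9163325-9163727), the genes of the fork protection factor claspin and of a translation elongation factor, they were 1329 and 1337, with the summit 18 bp from eef-2 and 247 bp from clsp-1. Values in the replicates differed by under 1.5-fold at all 3, and each summit lay close to 1 gene of its pair. Whether copies of the rpl-12/lin-54 region in the fosmid transgene, which carries lin-54, add to that signal was not tested.

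Further down the first 12, rps-19/hsr-9 (signal 2040, 1001 in replicate 1 and 1047 in replicate 2) joined a small ribosomal subunit gene to the gene of a 53BP1-like protein. At rpl-7A/set-21 signals were 1006 and 999.7, at rpl-20/Y17G9B.5 1014 and 971, and at rpl-15/K11H12.8 853 and 953.5. The peaks of ant-1.1, an adenine nucleotide translocator gene (950 and 914), and nol-58, a nucleolar protein gene (910 and 868), lay 56 and 309 bp from those genes and 523 and 23 bp from T27E9.2 and zip-4. The remaining 3 were Y53F4B.9/Y53F4B.11, haf-3/F57A10.2 and drr-2/set-16, which pairs a gene of an eIF4H-like factor with that of an MLL-like histone methyltransferase. The last had the widest difference of the 12, at 904 in replicate 1 and 719 in replicate 2, and its summit was 171 and 175 bp from the 5′ ends.

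The third comparison asks whether the DREAM elements lay at the divergent peaks as often as at single-strand peaks. Within 50 bp of the summit an E2F site was found at 162 divergent peaks (22.2%, 19.4% to 25.38%) and 302 single-strand peaks (21.5%, 19.5% to 23.8%). The difference was 0.70 points with an interval from -2.93 to 4.47 (adjusted Fisher's exact p = 0.816). A CHR element was found at 291 (39.9%, 36.4% to 43.5%) and 568 (40.5%, 37.9% to 43.1%), a difference of -0.57 points between -4.92 and 3.84 (adjusted Fisher's exact p = 0.816). No difference was therefore detected, and the intervals leave room for one of up to about these bounds. Within 100 bp, CHR elements were found at 64.9% of divergent and 58.6% of single-strand peaks, and that difference of 6.29 points passed the threshold (adjusted Fisher's exact p = 0.00628). Within 50 bp in the stronger of 2 equal parts of the IDR list it ran the other way, at -5.86 points, and missed the threshold (adjusted Fisher's exact p = 0.0573).

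Both elements had higher shares than in the 871 background regions in windows of both strands, where an E2F site was found in 5.97% (4.58% to 7.75%) and a CHR element in 28.6% (25.7% to 31.7%). GC content differed as well, with medians of 45.5% at divergent summits, 44.6% at single-strand summits and 40.6% in these background regions, and its part was not tested. E2F sites crowded at the summit, with 67.2 to 89.2 per 1000 divergent peaks in the 25 bp bins on either side of it and 4.12 to 13.7 beyond 100 bp. CHR elements flanked it: they numbered 80.9 and 97.4 per 1000 within 25 bp, 137 and 173 at 25 to 50 bp, and 148 on each side at 50 to 75 bp. Beyond 100 bp they still numbered 91.9 to 122, so their rise was far smaller than that of E2F sites. Single-strand peaks had 153 and 160 at 25 to 50 bp, beside 137 and 173, and 127 and 97.6 at 50 to 75 bp.

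**Figure D4:**
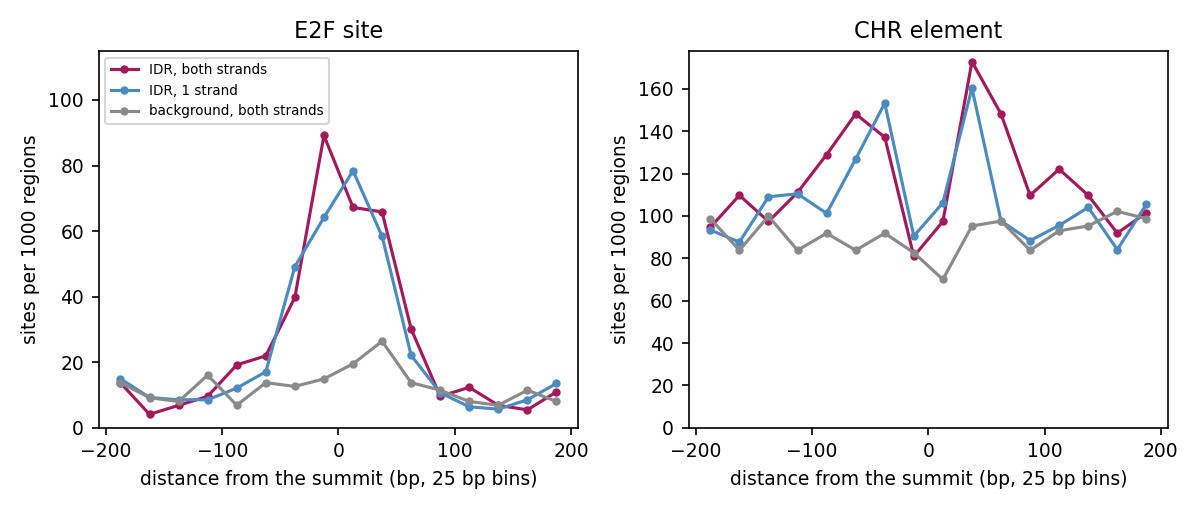
E2F sites (left) and CHR elements (right) per 1000 regions in 25 bp bins around the summit, for divergent peaks (IDR, both strands), single-strand peaks (IDR, 1 strand) and background regions in windows of both strands. At divergent peaks E2F sites peak at the summit, at up to 89.2 per 1000, whereas CHR elements dip there and are highest 25 to 75 bp to either side.

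Of the 192 E2F sites within 50 bp of divergent summits, 66 read TTGGCGC, 62 TTCGCGC, 42 TTCCCGC and 22 TTGCCGC. Of the 356 CHR elements, 276 (77.5%) read TTTGAA and 80 the palindrome TTCGAA. Both elements were present at 88 peaks (12.1%, 9.90% to 14.6%) and neither at 364 (49.9%, 46.3% to 53.6%). In background regions both were present at 1.84% (1.13% to 2.96%). A palindromic match was counted 1 time, and sites of 1 motif that overlap at different starts were each counted.

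Where both elements were present, their centres were a median of 15.5 bp apart (quartiles 10.5 and 32.75 bp). A CHR element lay within 10 bases on the 5′ side of the E2F site, reading the site with its thymines first, at 45 peaks, and on the 3′ side at 13. Single-strand peaks had 99 and 38. The commonest single arrangement at divergent peaks was a CHR element on the same strand with 0 bases between, at 9 peaks, as in the Y53F4B.9/Y53F4B.11 sequence. It was also found at 16 single-strand peaks. These spacings were looked at after the values were seen and carry no test.

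Signals were highest where both elements were present. Divergent peaks with both had a median of 352 (164 in replicate 1 and 189 in replicate 2), those with an E2F site alone 286 (140 and 158), with a CHR element alone 245 (116 and 134) and with neither 208 (96.8 and 112). The order was the same in each replicate, but the quartiles overlapped widely, at 219 to 564 with both and 133 to 353 with neither. Of the 183 strongest divergent peaks, 53 (29.0%, 22.9% to 35.9%) had an E2F site, and of the 182 weakest 25 (13.7%, 9.48% to 19.5%). CHR elements were found in 53.0% and 34.6% of these peaks.

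The fourth question is which genes lay at the divergent peaks. Of 17242 autosomal protein-coding genes, 15.7% had an IDR summit away from tRNA genes in the promoter window and 8.28% had a divergent one, which counts for both of its genes. Against the latter, 53 of 109 listed mitotic genes (48.6%), 41 of 99 genes of DNA replication and repair (41.4%) and 18 of 46 meiotic genes (39.1%) had a divergent peak. So did 44 of 81 cytosolic ribosomal protein genes (54.3%), 17 of 33 proteasome genes (51.5%), 16 of 31 translation factor genes (51.6%) and 20 of 44 genes of the nuclear pore and transport (45.5%). The lists were drawn up with results of these data known, so these shares are descriptions and carry no test.

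Lower shares were found for germline RNA regulators (20 of 69, 29.0%), small RNA pathways (18 of 68, 26.5%), synMuv B and chromatin regulators (15 of 62, 24.2%), mitochondrial ribosomal proteins (19 of 70, 27.1%), the respiratory chain (14 of 45, 31.1%) and aminoacyl tRNA synthetases (4 of 31, 12.9%). Histone genes had 5 of 77 (6.49%). Collagen and chemoreceptor genes had 3 of 129 (2.33%) and 11 of 1331 (0.826%), and major sperm protein genes 0 of 47. Read as a share of the genes of a list with any promoter peak, divergent peaks accounted for 18 of 22 meiotic genes (81.8%) and 15 of 38 synMuv B and chromatin genes (39.5%), with 52.7% over all bound genes.

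**Figure D5:**
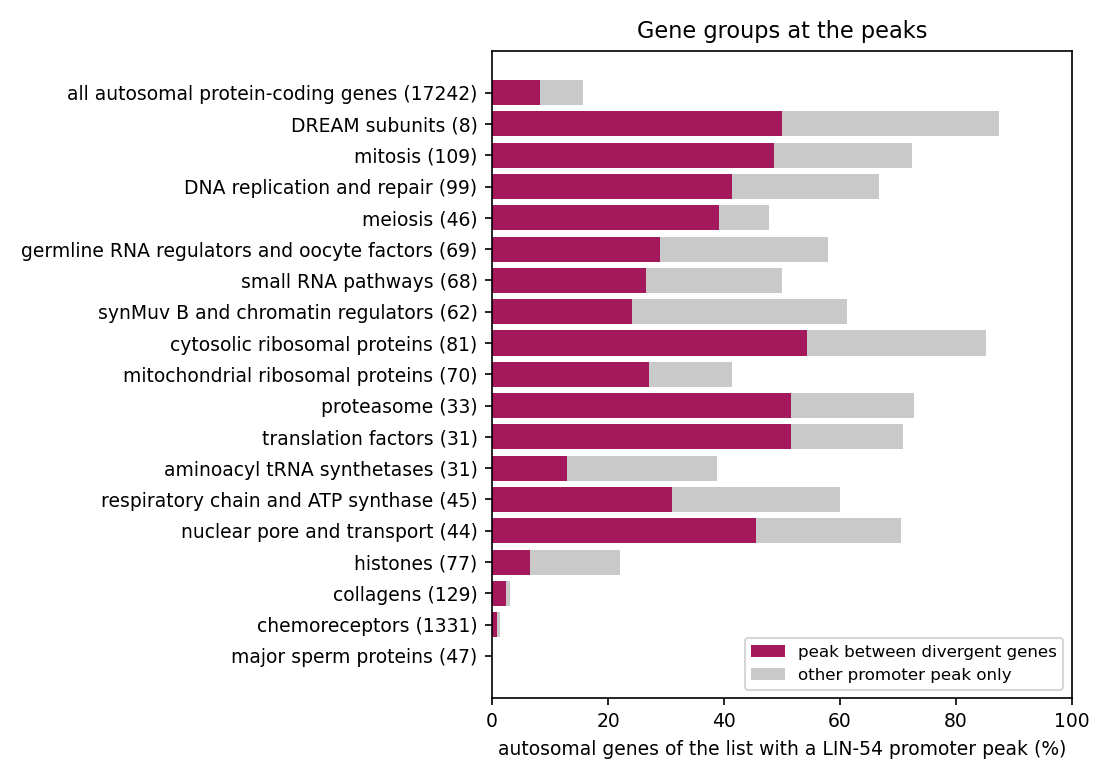
Percentage of the autosomal genes of each list (number in brackets) with a LIN-54 promoter peak: a divergent peak in colour, and another promoter peak only in grey. Over all genes these are 8.28% of 15.7%, and the coloured part runs from 0 for major sperm proteins to 54.3% for cytosolic ribosomal proteins.

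Genes of 1 list seldom faced each other. At 293 divergent peaks at least 1 gene was on a list, at 44 both nearest genes were, and at 6 both were on the same one. Of these, 3 joined ribosomal protein genes of both subunits: rps-10/rpl-24.1 (signal 364), rps-14/rpl-36 (359) and rpl-39/rps-30 (262), all without either element. The others included msh-2/hus-1 (160), a mismatch repair and a checkpoint clamp gene, and the histone pair his-67/his-68 (674), whose peak also lay in the window of the Argonaute gene alg-5.

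The 10 strongest pairs with both genes listed included eef-1A.1/rfc-4 (chrIII:6971932-6972256, 573 in replicate 1 and 621 in replicate 2), a translation elongation factor and a clamp loader gene, with the summit 150 bp from rfc-4. They also included npp-3/top-2 (chrII:11874712-11875057, 671 and 590), a nucleoporin and a topoisomerase II gene, with the summit 81 bp from npp-3, polh-1/rps-22 (369 and 432), where it was 133 bp from each gene, and ctf-4/eef-1G (351 and 418). The collagen gene col-38 shared its peak with the ribosomal protein gene rpl-5 (567 and 627), and a weaker one lay between col-2 and the kinetochore gene ndc-80 (140 and 188). The third collagen gene, col-71, faced Y49F6B.2 (93.1 and 118).

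Of the 8 autosomal DREAM subunit genes, 7 had a promoter peak (87.5%) and 4 a divergent one (50%). Over all autosomal protein-coding genes these shares were 15.7% and 8.28%. The 4 were lin-54, lin-53 (facing nra-2), efl-1 (facing fbxa-90) and lin-35 (facing vps-51). For lin-54 the limit given above on transgene copies applies. The lin-53 summit was 234 bp from lin-53 and 233 bp from nra-2 (631 in replicate 1 and 671 in replicate 2). The efl-1 summit was 169 bp from efl-1 and 970 bp from fbxa-90 (469 and 506), and the lin-35 summit 166 bp from lin-35 and 252 bp from vps-51 (279 and 221). None of the 4 had an E2F site within 50 bp, and lin-54 and lin-53 had a CHR element.

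Mitotic and replication genes went with E2F sites. Of the 98 divergent peaks at either list, 48 (49.0%, 39.3% to 58.7%) had an E2F site, against 114 of the other 631 (18.1%, 15.3% to 21.3%), and they held 48 of the 162 divergent peaks with one (29.6%). Singly, 31 of 59 mitotic and 21 of 43 replication peaks had one (52.5% and 48.8%), beside 14 of 31 (45.2%) and 13 of 31 (41.9%) single-strand peaks at genes of these lists. At ribosomal protein genes it was 2 of 43 divergent peaks (4.65%) and at respiratory chain genes 0 of 14. Germline RNA regulators had an E2F site at 5 of 22 divergent (22.7%) and 12 of 22 single-strand peaks (54.5%), and small RNA genes at 2 of 19 (10.5%) and 6 of 16 (37.5%). These counts are small and were not tested.

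Among mitotic genes the strongest divergent peaks lay at knl-3, facing T10B5.3 (694 in replicate 1 and 803 in replicate 2), kbp-4, in a gap of 126 bp with rab-18 and beside the polarity gene par-2 (510 and 648), and hcp-4, the CENP-C gene, facing the glycolytic gene pgk-1 across 1603 bp (545 and 609). The knl-3 summit was 426 bp from knl-3 and 216 bp from T10B5.3, and the hcp-4 summit 689 bp from hcp-4 and 914 bp from pgk-1. Each of the 3 had both elements. Among meiotic genes they were wapl-1, a cohesin release factor gene facing the histone variant gene htz-1 (365 and 370), prom-1, facing the RNA polymerase I gene rpoa-2 (346 and 388), and the cohesin gene coh-3, facing the kinesin gene bmk-1 (267 and 275). The prom-1 summit had 1 E2F site and 3 CHR elements.

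Germline and small RNA genes were led by larp-1, an RNA-binding protein gene facing wip-1 (618 in replicate 1 and 561 in replicate 2), ifet-1, facing rps-1 (545 and 508), and cey-2, a Y-box protein gene (332 and 358). The nuclear RNAi gene nrde-2 shared its gap of 1353 bp with atad-3 (266 and 285), and the piRNA pathway gene pid-5 its gap of 242 bp with the cohesin gene coh-4 (254 and 278). Among chromatin regulators the strongest were ash-2 (366 and 491), mrg-1 (298 and 418) and epc-1 (228 and 209). The replicates differed most at mrg-1 and ash-2, where replicate 2 was higher, and all 3 summits lay between the gene starts.

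Proteasome genes were led by pbs-1 (449 in replicate 1 and 482 in replicate 2, with both elements), rpn-3, facing the chaperone gene hsp-110 (405 and 371), and rpn-9 (206 and 230.5). The ATP synthase gene atp-1 faced mcrs-1 across 190 bp (386 and 400), with the summit 2 bp inside atp-1. Among genes of nuclear transport, npp-14 (380 and 343) and ran-1, the gene of the Ran GTPase, facing the pseudouridine synthase gene dkc-1 (291 and 342), followed npp-3. Mitochondrial ribosomal protein genes had a median signal of 128 over 18 divergent peaks and 256 over 12 single-strand peaks. The proteasome medians were 141 over 18 and 247 over 9. Over divergent peaks the median was 325 at mitotic genes (59 peaks) and 281 at cytosolic ribosomal protein genes (43 peaks).

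Which gene of a pair the summit was nearer to differed in count between the groups. Where 1 of the nearest genes was listed and the summit lay in the gap, it was nearer to the listed gene at 27 of 54 mitotic pairs (50%), 22 of 38 replication pairs (57.9%), 12 of 17 meiotic pairs (70.6%), 12 of 16 proteasome pairs (75%), 13 of 37 ribosomal pairs (35.1%) and 6 of 18 nuclear pore pairs (33.3%). These counts were not tested.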

How the data were processed

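The members, gene lists and comparisons were chosen with earlier results of these data known. Per the deposited notes, the authors listed 30000 relaxed regions per replicate, and as many from the pool of both, from alignments and a control as input for IDR, on build ce11. No source used here gives the aligner, the peak caller or the IDR threshold. The deposited signal per region ranked regions and was compared across lists only side by side. The deposited −log10 q value reached a shared maximum and was not used. The deposited summit offset gave positions, read 1-based.

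Genes and 5′ ends came from Ensembl release 115 and sequence from RefSeq's copy of WBcel235. Python 3.11.15, numpy 2.4.6, pandas 2.3.3, scipy 1.17.1 and matplotlib 3.10.9 were used. Background regions were the 26151 pooled relaxed regions with no overlap with an IDR peak. Replicate values are those of the strongest region that overlaps by at least 50% of the shorter. For shares, Fisher's exact test was run two-sided, and its p-values were adjusted after Benjamini and Hochberg over 5 comparisons (threshold 0.05); peaks and gaps are not independent replicates, so these p-values cover counting error only. Intervals of differences combine the Wilson intervals. The steps were tested on simulated data.

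The alternatives tried were the stronger of 2 equal parts of the IDR list, either replicate alone, narrower and wider windows, other motif distances, head-to-head pairs only, tRNA gene peaks kept, other gap and overlap rules and, added after the data were seen, summits within 200 bp of a 5′ end. Named genes were those at the 12 strongest divergent peaks, at the 3 strongest of each list, at every DREAM subunit gene, the 10 strongest pairs with both genes listed and the weakest peaks. Others were chosen after their values were seen, and 1 pair that the rule names is not reported here. No protein-coding gene was found for 11 listed symbols.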

Additional observations from a re-analysis of the deposited data

How the results depend on the processing

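The higher share above the median signal, the share in windows of both strands and the excess of head-to-head over tandem gaps kept their direction and stayed past the threshold in every alternative run, at 11.6 to 15.1, 21.7 to 28.2 and 12.02 to 24.7 percentage points. The number of divergent peaks was 478 in the stronger of 2 equal parts of the IDR list, and between 495 and 899 otherwise, with 672 without replicate 2 and 738 without replicate 1. The difference in E2F share, not past the threshold in any alternative, was -0.69 points in that stronger part and -0.46 points with windows of 500 bp upstream to 150 bp downstream, and 0.58 to 1.89 points with either replicate left out. The difference in CHR share was 6.29 points within 100 bp of the summit, where it passed the threshold, -5.86 points in the stronger part (42.3% against 48.12%, adjusted Fisher's exact p = 0.0573) and -1.41 to 0.57 points with either replicate left out. For these changes the cause was not tested. The share of summits inside the gap was 87.2% with the outermost 5′ ends, which by construction narrow the gap. The share met in both replicates was 83.0% to 84.8% under other overlap rules. No paired analysis was possible because the 2 replicates form 1 group. Read depth is unknown, and with 2 replicates the spread between worms is hardly sampled.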

Other observations

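Some strong divergent peaks lay where neither nearest gene was on a housekeeping or cell cycle list. The chemoreceptor gene sri-5 shared a peak of 681 in replicate 1 and 759 in replicate 2 with rsr-1, a gene of an RNA-processing protein, with the summit 242 bp from sri-5 and 490 bp from rsr-1. At srr-10, facing clic-1, signals were 239 and 337. The weakest of the 10 divergent peaks at chemoreceptor genes, srlf-7 facing C42D4.13, had 65.2 and 31.3, with ranks of 2661 and 7983.

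The pair Y77E11A.7/jtr-1 held 3 divergent peaks, with pooled signals of 249, 167 and 161. Noncoding genes lay within 200 bp of some divergent summits. Genes annotated as ncRNA did so at 68 (9.33%, 7.42% to 11.7%), against 97 single-strand peaks (6.91%, 5.70% to 8.36%), and piRNA genes at 8 (1.097%, 0.557% to 2.15%), against 15 (1.07%, 0.649% to 1.76%). Lower counts lay near genes of other classes, with 6 near snoRNA genes (0.823%, 0.378% to 1.78%), against 30 single-strand peaks (2.14%, 1.502% to 3.04%), and 3 near snRNA genes (0.412%, 0.140% to 1.20%), against 21 (1.497%, 0.981% to 2.28%). These shares were not tested.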
